A study of Mus musculus with 69 samples.

Results

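The 6 genes described here are Cyp4a10, Cyp4a14, Cyp4a31, Cyp4a32, Cyp4a12a and Cyp4a12b. All are mouse Cyp4a fatty acid hydroxylases listed by name in each of 4 expression tables. Cyp4a29 and Cyp4a30b were listed too but were not among those chosen. The members are 6 of the 55487 genes in the 24 h tables and of the 53700 genes in the 72 h tables. They were chosen by name with their measured differences in the proximal tubule already in view, so those differences are given as a description, with no test. RNA-seq was made from tubules dissected by hand from the kidneys of wild-type male C57BL/6 mice from Taconic, operated on at 7 weeks of age. One arm had a sham operation. In the other, 1 kidney was excised (unilateral nephrectomy, UNx). Tubules were taken 24 h or 72 h after the operation, and came from proximal tubule segment S1 (PT-S1) or from collecting ducts of the cortex (CCD). The 8 groups therefore share strain, sex, age and genotype, and differ in operation, time and segment. The number after the arm in a sample's name was read as the animal, and each animal is a replicate with the mean of its 1 to 3 libraries. The labels do not say whether PT-S1 and CCD came from the same animals.

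Cyp4a enzymes are cytochrome P450 monooxygenases that add a hydroxyl group to the far, or omega, end of fatty acids. The products can be oxidised to dicarboxylic acids and shortened in peroxisomes, and the same reaction on arachidonic acid gives 20-HETE, a lipid that acts on renal vessels and on tubular sodium transport. Cyp4a10 and Cyp4a14 are classical targets of PPAR-alpha, the nuclear receptor for fatty acids, while Cyp4a12a is the male-predominant, androgen-dependent form and the main arachidonate omega-hydroxylase of the mouse kidney. The family is expressed mainly in the proximal tubule of the kidney.

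The copies lie side by side, which bears on every value below. In the RefSeq annotation of GRCm38.p6, which was used only for the order of genes, the run on chromosome 4 reads Cyp4x1, Cyp4a29, Cyp4a12a, Cyp4a12b, Cyp4a30b, Cyp4a14, Cyp4a10, Cyp4a31, Cyp4a32, Cyp4b1. Coding sequences from GENCODE M21 (GRCm38) fell into 3 sets. Cyp4a12a and Cyp4a12b were 98.5% identical, with 23 differing bases. Cyp4a10 was 97.2% identical to Cyp4a32 and 96.6% to Cyp4a31. Cyp4a14 was between 75.1% and 75.9% identical to each of the others. The stretch around the cysteine that holds the haem iron shows these 3 sets. Each line gives 78 coding bases, with capitals at bases that differ from Cyp4a10:
Cyp4a10: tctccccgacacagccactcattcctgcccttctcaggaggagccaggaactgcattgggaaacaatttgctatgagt
Cyp4a31: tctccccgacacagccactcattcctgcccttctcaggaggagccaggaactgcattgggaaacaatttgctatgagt
Cyp4a12a: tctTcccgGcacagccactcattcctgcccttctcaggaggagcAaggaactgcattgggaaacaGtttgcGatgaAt
Cyp4a14: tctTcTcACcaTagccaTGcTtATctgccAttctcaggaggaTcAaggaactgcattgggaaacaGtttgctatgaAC
Cyp4a32 had the same 78 bases as Cyp4a10, and Cyp4a12b the same as Cyp4a12a. The 12a form differed from Cyp4a10 at 6 bases and Cyp4a14 at 16.

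How much of each transcript can be told apart depends on the length of a read. Of all coding windows of 75 bases, 45.9% of those in Cyp4a12a were also in Cyp4a12b, 26.6% of those in Cyp4a10 and 22.2% of those in Cyp4a31 were in another member, and 0 of 1447 in Cyp4a14 were. A read inside a shared window can be assigned to more than 1 copy, so the values of Cyp4a10, Cyp4a31 and Cyp4a32, and of Cyp4a12a with Cyp4a12b, are uncertain against each other. For that reason the summed TPM (a length-scaled level of transcripts, scaled so that every library has the same total) is given beside each member.

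The libraries set limits on precision that apply to all the values. Depth is unknown, because TPM keeps no depth, and genes at 1 TPM or more ranged from 9247 to 12494 per PT-S1 library and from 12681 to 14875 per CCD library. Markers of each dissected segment were high in its own tables. The summed TPM of 6 S1/S2 markers (Slc5a2, Slc5a12, Slc34a1, Slc22a6, Lrp2 and Slc4a4) was between 6495 and 15377 in PT-S1 animals and between 9.98 and 78.0 in CCD animals. That of 7 principal cell markers of the collecting duct (Aqp2, Aqp3, Avpr2, Scnn1b, Scnn1g, Fxyd4 and Hsd11b2) was between 22133 and 66803 in CCD animals and between 71.5 and 135 in PT-S1 animals. A median correlation under 0.92 with the rest of the table marked 5 of the 69 libraries. These were 1 library each of sham animals 1 and 3 in PT-S1 at 24 h, of UNx animals 1 and 2 in PT-S1 at 72 h, and of sham animal 1 in CCD at 72 h.

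By its summed TPM the family was higher in PT-S1 than in CCD, and its level in PT-S1 was highest 24 h after nephrectomy. Not every member followed the sum. Cyp4a32 was low in both segments, at 0.334 TPM in PT-S1 and 0.430 TPM in CCD sham animals at 24 h. In sham animals at 72 h, Cyp4a12a ranged from 6.23 to 31.5 TPM in PT-S1 and from 0.5 to 8.03 TPM in CCD. Those ranges overlapped. The summed Cyp4a level was 634 ± 284 TPM in sham animals of PT-S1 at 24 h (SD, n = 3) and 2641 ± 1156 TPM in UNx animals (n = 4). At 72 h it was 194 ± 142 TPM after sham and 315 ± 134 TPM after UNx surgery (n = 5 each). In CCD the sums were 21.8 ± 13.9 TPM after sham and 15.1 ± 9.57 TPM after UNx surgery at 24 h (n = 4 and 3), and 10.9 ± 10.6 and 6.43 ± 5.15 TPM at 72 h (n = 4 each). Levels set side by side across segments and times come from tables that were normalized separately, so that order is a description. Within it, the sham and UNx groups of PT-S1 at 24 h did not overlap, those at 72 h did, and the 4 CCD groups overlapped one another.

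At 24 h in PT-S1 the 3 sham animals had summed levels of 413, 535 and 955 TPM and the 4 UNx animals 1049, 2561, 3297 and 3658 TPM. The lowest UNx animal stood just above the highest sham animal, while the other 3 were well clear of it. The ratio of the group means was 4.16. Of the 11874 genes tested in that table, 2.32% had every UNx animal above every sham animal. Among the 5 members that reached a mean of 1 TPM, Cyp4a10 and Cyp4a31 did so, and the choice of members rested on this contrast. In bulk tubules, more RNA per cell and more cells of a type cannot be told apart.

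Cyp4a10, the PPAR-alpha-responsive omega-hydroxylase (ENSMUSG00000066072), had 136, 145 and 413 TPM in the sham animals at 24 h. The UNx animals had 488, 1207, 1519 and 1657 TPM. Its log2 change on the log2(TPM + 1) scale was 2.62 (SE 0.448, animal means). Between UNx and sham animals the median gene of this table differed by -0.19 and that of the 72 h table by -0.29. Without the libraries marked for low correlation, these medians were -0.21 and -0.02. Changes are also given relative to the median gene with all libraries, here 2.81.

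Cyp4a14, the member with the lowest coding identity to the rest (ENSMUSG00000028715), had the largest change of the family at 24 h. Its levels were 18.5, 39.5 and 135 TPM in sham animals and 133, 445, 503 and 809 TPM in UNx animals. The lowest UNx animal was just below the highest sham animal, so the groups overlapped. The change was 3.21 (SE 0.657), or 3.41 relative to the median gene. No reads of 75 bases could be shared between its coding sequence and the other members.

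Cyp4a31 (ENSMUSG00000028712), a close copy of Cyp4a10 by sequence, was the most even of the 3 among the sham animals, at 218, 223 and 281 TPM. In UNx animals it had 363, 747, 975 and 1003 TPM, with no overlap. The change was 1.71 (SE 0.311), or 1.91 relative to the median gene. Cyp4a32 (ENSMUSG00000063929), the last copy of the run, stayed near the bottom of the scale. It had 0.18, 0.35 and 0.473 TPM in sham and 0.85, 0.87, 0.977 and 1.09 TPM in UNx animals, under the mean of 1 TPM set for testing.

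Cyp4a12a and its close copy Cyp4a12b were lower and less separated at 24 h than Cyp4a10 and Cyp4a31. Cyp4a12a (ENSMUSG00000066071) had 21.0, 82.8 and 96.0 TPM in sham animals and 29.8, 73.2, 91.9 and 254 TPM in UNx animals. Only 1 of the 4 UNx animals was above all sham animals, and the change was 0.71 (SE 0.706). It was -0.06 without sham animal 2, the lowest of the group. Cyp4a12b (ENSMUSG00000078597), its near-identical neighbour, had 13.9, 35.7 and 41.9 TPM in sham and 31.1, 33.3, 94.9 and 103 TPM in UNx animals. There, 2 of the 4 UNx animals were above all sham animals, with a change of 1.22 (SE 0.522).

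**Figure D1:**
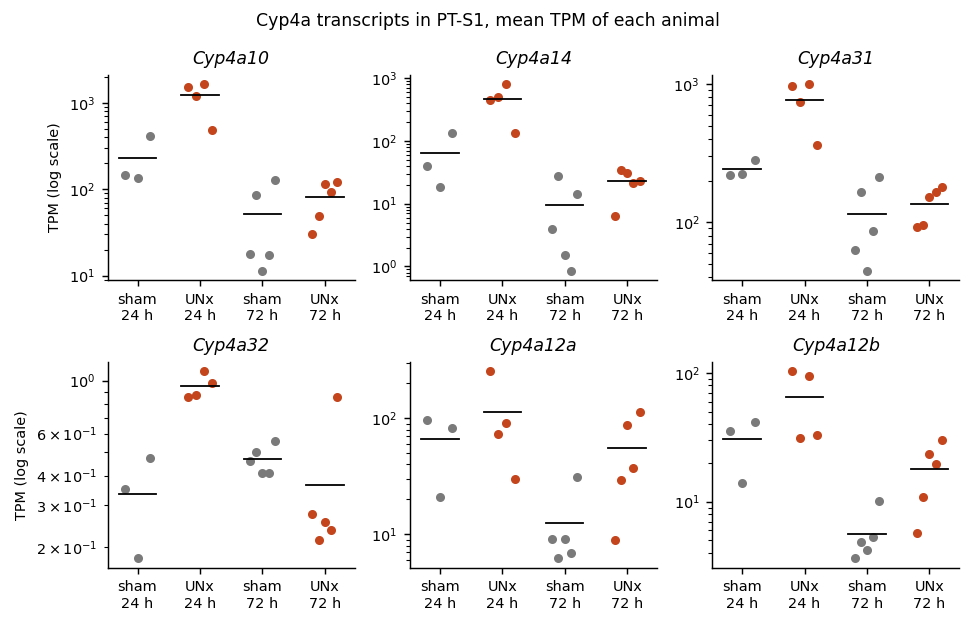
Mean TPM of each animal (points, log scale) for the 6 Cyp4a genes in PT-S1, by operation and time, with the group mean as a black line. For Cyp4a10, Cyp4a31 and Cyp4a32 the 4 UNx animals at 24 h lie above the 3 sham animals, with Cyp4a32 under 1.1 TPM in each. At 72 h the groups overlap for all 6 genes.

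At 72 h the levels were lower in both arms and the groups overlapped for all 6 members. The summed level in sham animals ran from 70.8 to 396 TPM with a median of 117 TPM, and in UNx animals from 143 to 468 TPM with a median of 337 TPM. Sham animals 2 and 5, at 291 and 396 TPM, were in the range of the UNx animals, and the other 3 sham animals were below all of them. At 72 h, 0.236% of 11886 genes had every UNx animal above every sham animal, and none of the 5 members tested did.

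Cyp4a10 had 11.3, 17.1, 18.0, 84.9 and 127 TPM in sham and 30.2, 48.6, 93.9, 114 and 121 TPM in UNx animals. No UNx animal was above the highest sham animal. The change was 1.23 (SE 0.593), or 1.51 relative to the median gene. Cyp4a14 had 0.847, 1.51, 3.93, 14.4 and 27.6 TPM in sham and 6.39, 21.4, 23.0, 31.3 and 34.7 TPM in UNx animals. For Cyp4a14, 2 UNx animals were above all sham animals, and the change was 1.91 (SE 0.587), or 2.20 relative to the median gene. Cyp4a31 was nearly level between arms, at 115 ± 71.9 TPM after sham and 136 ± 40.5 TPM after UNx surgery (SD, n = 5 each), with a change of 0.32 (SE 0.422).

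The 12a and 12b copies had the most UNx animals above all sham animals at 72 h, although the change of Cyp4a14 was larger. Cyp4a12a had 6.23, 6.92, 9.12, 9.21 and 31.5 TPM in sham animals, of which the last is sham animal 5. The UNx animals had 8.88, 29.7, 37.2, 87.8 and 114 TPM, and 3 of the 5 were above all sham animals. The change was 1.73 (SE 0.651), or 2.02 relative to the median gene. Cyp4a12b had 3.63, 4.20, 4.83, 5.27 and 10.1 TPM in sham and 5.65, 10.9, 19.5, 23.4 and 30.1 TPM in UNx animals, with 4 of 5 UNx animals above all sham animals and a change of 1.23 (SE 0.451). Cyp4a32 was between 0.215 and 0.85 TPM in all 10 animals.

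By limma with Benjamini-Hochberg adjustment, 0% of the 11874 genes at 24 h and 0% of the 11886 genes at 72 h in PT-S1 passed an adjusted p of 0.05, members included, while 2109 and 2432 genes had an unadjusted p under 0.05. Nothing is read from these calls for the members, because the contrast was in view when they were chosen. The change at 24 h minus the change at 72 h was 1.40 for Cyp4a10 (SE 0.876), 1.30 for Cyp4a14 (SE 0.992) and 1.40 for Cyp4a31 (SE 0.613). It was -1.02 for Cyp4a12a (SE 1.08) and -0.01 for Cyp4a12b (SE 0.767). Cyp4a10, Cyp4a14 and Cyp4a31 had the larger change at 24 h and Cyp4a12a at 72 h. For the difference between times, 0% of 11455 genes passed in limma (adjusted p under 0.05). Without the 4 low-correlation libraries of PT-S1, the difference of Cyp4a10 was 0.70, that of Cyp4a14 0.94 and that of Cyp4a31 0.61. It was -1.56 for Cyp4a12a and -0.49 for Cyp4a12b. The median difference over all genes was also lower there, at -0.20 against 0.098 with all libraries.

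**Figure D2:**
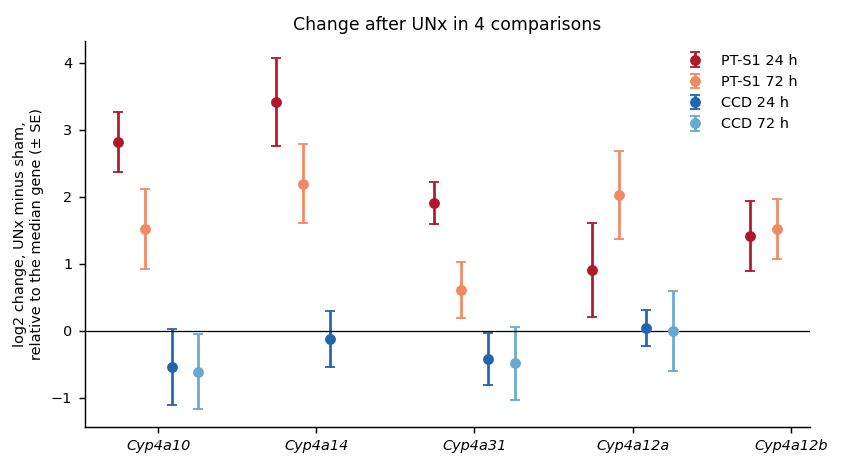
Change after UNx in log2(TPM + 1), relative to the median gene of each table, for the 5 members that reached 1 TPM in at least 1 table (points, with SE from limma over animals). In PT-S1 all values are above 0. In CCD the values lie between -0.61 and 0.04, and members below 1 TPM in a table have no point.

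The make-up of the family differed between groups as well as its level. In sham animals of PT-S1 at 24 h, Cyp4a31 held 41.5% ± 14.2 of the summed TPM and Cyp4a10 34.1% ± 9.43 (SD, n = 3). In UNx animals Cyp4a10 held 46.5% ± 1.13 and Cyp4a31 30.2% ± 3.31 (n = 4). Cyp4a31 per Cyp4a10 was between 0.681 and 1.64 in the sham animals and between 0.605 and 0.745 in the UNx animals, so sham animal 3 fell inside the UNx range. At 72 h Cyp4a31 was the main form in both arms, with 65.5% ± 4.97 in sham and 47.6% ± 12.5 in UNx animals (n = 5 each). The share of Cyp4a12a at 72 h was 7.47% ± 3.58 in sham and 14.9% ± 7.74 in UNx animals, with the groups overlapping. These shares rest on how reads were divided between the near-identical copies. Cyp4a14 shares no coding window with the other members, so its ratio to the sum of Cyp4a10, Cyp4a31 and Cyp4a32 does not turn on the division among those 3 copies. That ratio was 0.118 ± 0.0718 in sham and 0.224 ± 0.0687 in UNx animals at 24 h (SD, n = 3 and 4). At 72 h it was 0.0470 ± 0.0382 and 0.114 ± 0.0750 (n = 5 each), and the groups overlapped at both times.

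**Figure D3:**
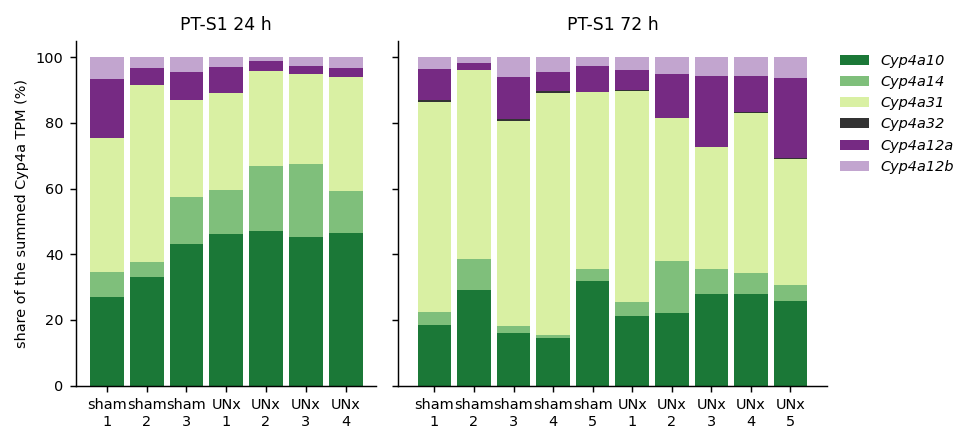
Share of the summed Cyp4a TPM held by each member in every PT-S1 animal (stacked bars, %). Cyp4a31 and Cyp4a10 together hold most of the sum in each animal, and the Cyp4a12a band is widest in UNx animals 3 and 5 at 72 h.

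In PT-S1 the spread of the summed Cyp4a level between libraries of an animal was near its spread between animals. The SD on the log2 scale was 0.713 between libraries and 0.704 between animals of a group at 24 h, and 0.903 and 0.940 at 72 h. For Cyp4a10, the SD between libraries of an animal was 0.801 at 24 h and 1.20 at 72 h, against 0.807 and 1.14 between animals of a group. Cyp4a14 went both ways, with 0.805 between libraries and 1.21 between animals at 24 h, and 1.61 and 1.13 at 72 h. In CCD the summed level had 1.14 and 0.771 at 24 h, and 0.569 and 1.18 at 72 h. By the ratio of TPM + 1, the widest case of a member in CCD was sham animal 4 at 24 h, with 1.24 to 38.9 TPM of Cyp4a10. The widest case in PT-S1 was UNx animal 3 at 72 h, where libraries of the same mouse held 2.38 and 66.7 TPM of Cyp4a14. Sham animal 5 at 72 h held 27.0 and 296 TPM of Cyp4a10 in separate libraries.

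This spread moved with markers of the last proximal segment, S3. The summed TPM of 6 S3 markers (Slc7a13, Slc22a7, Cyp7b1, Slc5a1, Slc22a13 and Slco1a1) spanned 3.08 to 76.2 in sham animals at 24 h and 2.34 to 373 in UNx animals. At 72 h the spans were 1.65 to 539 in sham animals and 4.19 to 124 in UNx animals. All 6 were above 0 in each group. In 14 of the 17 PT-S1 animals, the library with the most S3 marker TPM was also the library with the most Cyp4a TPM. UNx animal 2 at 24 h held 1433 TPM of Cyp4a in the library with 1.02 TPM of S3 markers and 3690 TPM in the library with 746 TPM. Sham animal 5 at 72 h held 766 TPM of Cyp4a in the library with 1445 TPM of S3 markers and 191 TPM in the library with 6.99 TPM.

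Over the 17 animals, after the mean of each group was taken off, Cyp4a10 correlated with the summed S3 markers with r = 0.692 (adjusted p = 0.0245) and rho = 0.721 (adjusted p = 0.0219, permutation tests within groups). For Cyp4a14 r was 0.714 (adjusted p = 0.0245) and rho 0.716 (adjusted p = 0.0219, permutation). For Cyp4a31 r was 0.634 (adjusted p = 0.0411) and for Cyp4a12b 0.600 (adjusted p = 0.0411), each with rho = 0.657 (adjusted p = 0.0219, permutation). For Cyp4a12a r was 0.543 (adjusted p = 0.0565) and rho 0.650 (adjusted p = 0.0219, permutation). Without the 2 animals farthest from the median of the S3 markers, r was 0.560 for Cyp4a10, 0.630 for Cyp4a14, 0.449 for Cyp4a31, 0.527 for Cyp4a12b and 0.410 for Cyp4a12a. The p-values were adjusted over 10 relations, 5 members with each of 2 marker sums, which were added after the data were seen. How many of all genes would pass with these sums was not computed, so passing is not read as particular to the family. With the S1/S2 marker sum, Cyp4a31 passed too (r = 0.690, adjusted p = 0.0245; rho = 0.654, adjusted p = 0.0219, permutation; r = 0.605 without the 2 farthest animals) and the other 4 members did not. Without the low-correlation libraries, no member passed on r with either marker sum, and r with S3 markers was 0.693 for Cyp4a10 and 0.654 for Cyp4a14 (adjusted p = 0.0596 for each, permutation). On rho with S3 markers, Cyp4a10, Cyp4a31 and Cyp4a14 still passed there, with adjusted p of 0.0120, 0.0120 and 0.0323 by permutation, and no member passed with S1/S2 markers.

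The 24 h libraries of PT-S1 fell on either side of 20 TPM of S3 markers, a level set after the values were seen. On the UNx side, 4 libraries of 2 animals with 0.55 to 5.46 TPM of S3 markers held 824 to 1433 TPM of Cyp4a. The other 5 UNx libraries, with 30.1 to 746 TPM of S3 markers, held 3072 to 3755 TPM. Among sham libraries, 6 from 3 animals with 0.94 to 11.1 TPM of S3 markers held 276 to 759 TPM of Cyp4a, and 2 with 202 and 224 TPM held 1802 and 661 TPM. Among UNx libraries the Cyp4a values above and below 20 TPM of S3 markers did not overlap. Among sham libraries the highest value was above that level, while 661 TPM lay within the range of those below it. The level was set on these same 24 h libraries, so the split is a description. At 72 h the Cyp4a values of UNx libraries above and below it overlapped. There, a library of UNx animal 3 with 1.51 TPM of S3 markers held 459 TPM of Cyp4a. A library of UNx animal 4 with 68.0 TPM of S3 markers held 239 TPM. The part of S3 content in the difference between arms was not tested.

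**Figure D4:**
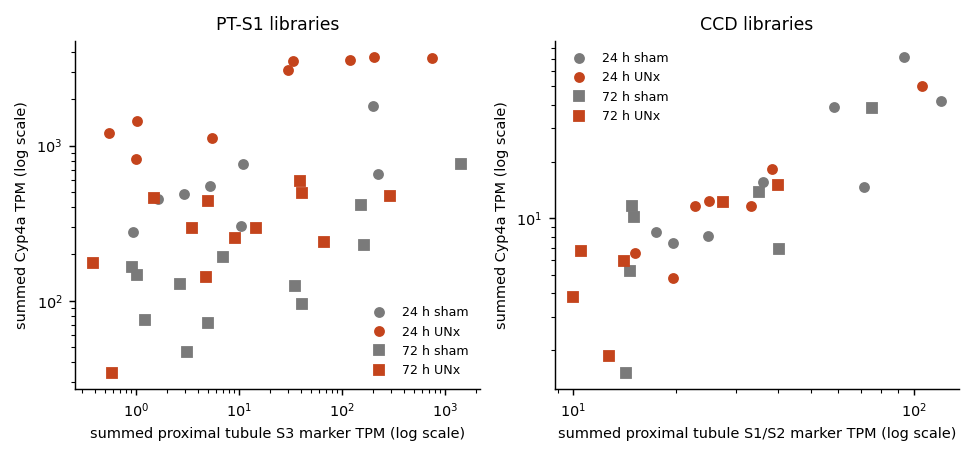
Summed Cyp4a TPM of each library against the summed S3 markers in PT-S1 (left) and against the summed S1/S2 markers in CCD (right), both axes on log scales, by time (shape) and operation (colour). In PT-S1 the 24 h UNx libraries form a lower set at 824 to 1433 TPM of Cyp4a with little S3 marker TPM and an upper set at 3072 to 3755 TPM with more. The 72 h UNx libraries above and below 20 TPM of S3 markers overlap in Cyp4a TPM. In CCD the library with 72.0 TPM of Cyp4a, the highest, has 94.0 TPM of S1/S2 markers.

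The members varied together among animals. After the group means were taken off, all 10 pairs of the 5 members above 1 TPM had a positive correlation over the 17 PT-S1 animals. The highest was that of the near-identical Cyp4a12a and Cyp4a12b, with r = 0.934 (adjusted p = 0.00105, permutation test within groups) and rho = 0.926 (adjusted p = 0.0011). Cyp4a10 and Cyp4a31, which also share reads, had r = 0.917 (adjusted p = 0.0004, permutation) and rho = 0.895 (adjusted p = 0.0011). Cyp4a10 and Cyp4a14, which share no coding window, had r = 0.834 (adjusted p = 0.00324, permutation) and rho = 0.860 (adjusted p = 0.0026). The lowest was Cyp4a14 with Cyp4a12a, with r = 0.584 (adjusted p = 0.0293, permutation) and rho = 0.475 (adjusted p = 0.0819). Leaving out the 2 animals farthest from the median of the first gene gave r of 0.886, 0.888, 0.788 and 0.332 for these pairs, so the last rests on those animals. Adjustment was over the 10 pairs, of which 10 passed on r and 9 on rho. The share of pairs passing among all genes was not computed, so the count is not read as particular to the family. By the lower of its correlations at 24 h and 72 h, Acadl, a gene outside the family, stood nearer to Cyp4a10 than any other member did. Within the 72 h table alone 7 pairs passed on r. Within the 24 h table alone no pair passed in exact permutation tests over 7 animals, where r was between 0.593 and 0.936.

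The genes most like the members were ranked by the lower of the correlations in the 24 h table (7 animals) and the 72 h table (10 animals), among 11455 genes, as a description. Nearest to Cyp4a10 were Acadl, the long-chain acyl-CoA dehydrogenase of mitochondrial fatty acid oxidation (r = 0.940 and 0.939), Ggt1, the brush border gamma-glutamyltransferase (0.912 and 0.911), and Eci3, an enoyl-CoA isomerase (0.923 and 0.905). Nearest to Cyp4a14 were Mogat1, a monoacylglycerol acyltransferase (0.946 and 0.831), Ssc4d, a scavenger receptor protein (0.930 and 0.812), and Napsa, the aspartic protease napsin A (0.900 and 0.811). Nearest to Cyp4a12a were Cyp2j13, a P450 of the renal epoxygenase family (0.958 and 0.929), Cyp4b1, the neighbouring P450 of the same run (0.947 and 0.919), and Sap30, a corepressor subunit (0.915 and 0.932). Cyp4a12b stood at 0.907 and 0.955 on the same measure. All these points share libraries, and so share their dissection and depth.

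**Figure D5:**
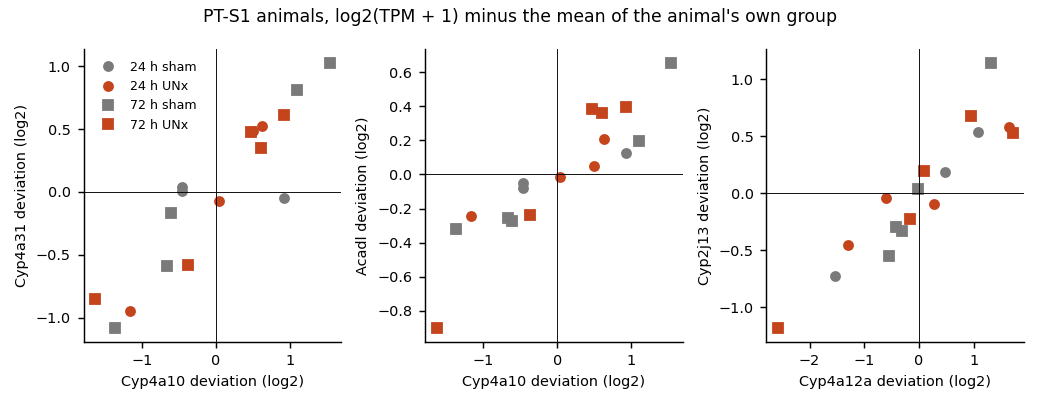
Deviation of each PT-S1 animal from its group mean in log2(TPM + 1), for Cyp4a10 with Cyp4a31, Cyp4a10 with Acadl and Cyp4a12a with Cyp2j13 (17 animals, shape by time, colour by operation). The points rise from lower left to upper right in each panel.

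Genes of the chain that handles omega-hydroxylated fatty acids stood mostly above the median gene at 24 h. By limma (adjusted p under 0.05), 0 of the 25 genes from P450 reductase to peroxisomal beta-oxidation passed in either direction in PT-S1 at 24 h. Their median change was 0.19, against -0.19 over all genes tested, and 23 of 25 were above the median gene. Acaa1b, a peroxisomal thiolase, was 174 ± 58.6 TPM after sham and 445 ± 263 TPM after UNx surgery (SD, n = 3 and 4; change 1.12, SE 0.410). Ehhadh, the peroxisomal bifunctional enzyme, was 193 ± 92.0 and 352 ± 149 TPM (change 1.02, SE 0.362). Pex11a, which promotes peroxisome division, was 46.5 ± 13.7 and 77.3 ± 31.5 TPM (change 0.70, SE 0.285). Por, the reductase that passes electrons to P450 enzymes, was 371 ± 4.28 and 357 ± 76.5 TPM, with a change of -0.04 (SE 0.192). Abcd3, a peroxisomal fatty acid transporter, and Aldh3a2, the fatty aldehyde dehydrogenase, had changes of 0.20 (SE 0.250) and -0.01 (SE 0.240). At 72 h the median of the 25 genes was -0.27, near the -0.29 of all genes, and 0 passed.

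Other PPAR-alpha targets stood mostly above the median gene at 24 h, and none passed the test. None of 23 tested target genes of fatty acid oxidation passed in limma (adjusted p under 0.05). Their median change was 0.40, and 21 of 23 were above the median gene. In 7 of the 23, every UNx animal was above every sham animal, as in 2.32% of all genes tested. Fabp1, the liver-type fatty acid binding protein, had a change of 2.93 (SE 0.365), and Vnn1, a pantetheinase, of 1.61 (SE 0.372). Pdk4, the kinase that inhibits pyruvate dehydrogenase, had a change of 1.12 (SE 0.533), Acadm, the medium-chain dehydrogenase, of 0.28 (SE 0.152), and Cpt1a, the carnitine palmitoyltransferase of the outer mitochondrial membrane, of -0.31 (SE 0.297). At 72 h the median of the 23 was -0.04, with Fabp1 at 0.97 (SE 0.347).

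No receptor or cofactor gene passed the test at 24 h, and most lay below the median gene. Ppara was 98.6 ± 12.1 TPM after sham and 77.7 ± 10.8 TPM after UNx surgery (SD, n = 3 and 4; change -0.34, SE 0.169, or -0.15 relative to the median gene). Its partner Rxra was 45.0 ± 17.3 and 15.9 ± 8.18 TPM (change -1.43, SE 0.377). The coactivator Ppargc1a was 54.5 ± 27.9 and 30.3 ± 3.71 TPM (change -0.50, SE 0.227). Each of these 3 had every UNx animal below every sham animal, as did 5 of the 11 tested and 19% of all 11874 genes. Of the 11 receptor and cofactor genes tested, 1 was above the median gene, the median change was -0.51, and 0 passed in limma (adjusted p under 0.05). Their changes at 72 h were -0.46 for Ppara (SE 0.196), -0.46 for Rxra (SE 0.253) and -0.75 for Ppargc1a (SE 0.256), and 0 of 10 passed. Every UNx animal was below every sham animal for 1 of those 10 genes, and for 5.34% of all 11886 genes tested at 72 h.

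The androgen-responsive genes of the kidney gave wide errors. Kap, the kidney androgen-regulated protein, was 3236 ± 2435 TPM after sham and 10987 ± 8553 TPM after UNx surgery at 24 h (SD, n = 3 and 4; change 1.61, SE 1.31), and its change at 72 h was 2.31 (SE 1.10). Cyp2e1, an ethanol- and ketone-oxidising P450, had changes of 0.81 (SE 0.730) and 1.37 (SE 0.702). Slco1a1, an organic anion transporter, had changes of 1.18 (SE 1.02) and -0.40 (SE 0.834), and Odc1, of polyamine synthesis, of -0.14 (SE 0.289) and -0.41 (SE 0.320). Of the 7 genes tested, 7 at 24 h and 4 at 72 h were above the median gene, and 0 passed in limma (adjusted p under 0.05) at either time. Slco1a1 and Cyp7b1 are also in the S3 marker list, whose sum varied in the same animals, and its part in these differences was not tested.

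Other P450 genes of arachidonate and fatty acid metabolism were measured in the same animals. Cyp4b1, the P450 at the end of the run, was more abundant per length than any member, at 3224 ± 709 TPM after sham and 4697 ± 1763 TPM after UNx surgery at 24 h (SD, n = 3 and 4; change 0.53, SE 0.345) and 2290 ± 2146 and 2786 ± 1521 TPM at 72 h (n = 5 each; change 0.32, SE 0.554). The genes inside the run that are not members, Cyp4x1, Cyp4a29 and Cyp4a30b, had group means of at most 0.0311 TPM in PT-S1. Cyp4f13, a P450 of the same family on another chromosome, was 43.3 ± 3.69 and 44.3 ± 10.4 TPM at 24 h, and Cyp4v3 was under 0.36 TPM in each PT-S1 group. Cyp2j5, an abundant renal epoxygenase, was 1089 ± 280 TPM after sham and 1079 ± 185 TPM after UNx surgery at 24 h, and Cyp2c23 was 22.4 ± 4.85 and 19.7 ± 3.58 TPM. Ephx2, the soluble epoxide hydrolase, was 318 ± 22.5 and 395 ± 93.1 TPM (change 0.29, SE 0.193), and Gpr75, a receptor for 20-HETE, was under 0.04 TPM. Of the 12 arachidonate genes and 4 other Cyp4 genes tested at 24 h, 0 passed in limma (adjusted p under 0.05).

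In CCD the members were tested, with the contrasts of that segment treated as not used in the choice, and no difference after UNx was detected. Earlier results of these data were known at the choice, so the p-values in CCD depend on that reading. By limma (adjusted p under 0.05), 0.987% of 13775 genes passed at 24 h and 0.595% of 13770 genes at 72 h, and no member among the 4 and 3 tested. With 1 animal left out, between 7 and 78 genes passed at 24 h and between 8 and 73 at 72 h, against 136 and 82 with all animals. Sham animals 1 to 4 had 6.37, 11.2, 2.19 and 20.3 TPM of Cyp4a10 at 24 h, and UNx animals 0.995, 4.54 and 10.6 TPM, with a change of -0.57 (SE 0.566, adjusted p = 0.677). The change of Cyp4a31 was -0.46 (SE 0.384, adjusted p = 0.612), that of Cyp4a14 -0.15 (SE 0.418, adjusted p = 0.903) and that of Cyp4a12a 0.003 (SE 0.265, adjusted p = 0.997). In CCD at 72 h, the change of Cyp4a10 was -0.60 (SE 0.560, adjusted p = 0.900), that of Cyp4a31 -0.48 (SE 0.541, adjusted p = 0.924) and that of Cyp4a12a 0.007 (SE 0.590, adjusted p = 0.999). The remaining members had a mean under 1 TPM there. Leaving out UNx animal 1 at 24 h gave changes of 0.05 for Cyp4a10 and 0.03 for Cyp4a31.

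In CCD the animal with the highest proximal marker sum also had the highest Cyp4a sum at each time. The summed S1/S2 markers averaged 48.6 TPM after sham and 34.2 TPM after UNx surgery at 24 h, and 31.2 and 17.2 TPM at 72 h. Sham animal 4 at 24 h had both the highest marker sum, 78.0 TPM, and the highest Cyp4a sum, 40.4 TPM, and sham animal 1 at 72 h had 55.3 and 26.0 TPM. The level of Cyp4a relative to proximal markers depended on the markers used. The summed Cyp4a TPM was 43.7% ± 16.3 of the S1/S2 marker sum in CCD sham animals at 24 h (SD, n = 4), against 4.91% ± 2.85 in PT-S1 sham animals (n = 3), and 33.8% ± 23.8 against 1.65% ± 0.902 at 72 h (n = 4 and 5). In UNx animals it was 42.3% ± 8.45 in CCD and 26.6% ± 14.9 in PT-S1 at 24 h (n = 3 and 4), where the segments overlapped, and 36.3% ± 15.5 and 2.51% ± 0.577 at 72 h (n = 4 and 5). Set against the S3 markers the order was the opposite, with 23.4% ± 13.6 in CCD sham animals at 24 h and between 702% and 13431% in PT-S1 sham animals. The S3 sum was between 81.1 and 99.1 TPM in those CCD animals, above the S1/S2 sum in each. It was between 3.08 and 76.2 TPM in those PT-S1 animals, so the high percentages there rest on a low sum. Whether the S3 sum in CCD is proximal RNA was not tested. The part of proximal RNA in the CCD values was not tested. In CCD at 72 h, Cyp4a12a was the main form, with 54.7% ± 25.5 of the sum in sham and 73.3% ± 4.36 in UNx animals (n = 4 each), while at 24 h Cyp4a10 led with 37.3% ± 6.87 in sham animals.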

How the data were processed

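The authors deposited TPM values per gene and library in 4 tables, 1 for each segment and time, from 69 SMART-Seq V4 libraries sequenced on a NovaSeq instrument, per the labels' protocols. STAR, RSEM 1.3.3 and GRCm39 are named in the submitters' processing notes, with no role or order. Depth is unknown, no column was left out, and 47 columns matched a single sample, while 22 gave only the group and animal. The members and gene lists were chosen with earlier results of these data known. Named genes are the members, genes fixed per list, neighbours in the run and the 3 most similar genes, and some list genes are counted but not reported here by name.

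Libraries of an animal were averaged as log2(TPM + 1), with a pseudocount of 1. Genes with a mean of at least 1 TPM over the animals were tested within each table, UNx against sham, with limma 3.58.1 in R 4.3.3 (moderated, mean-variance trend, two-sided, Benjamini-Hochberg adjustment over all genes tested, threshold 0.05). The script was tested on simulated data. Correlations used deviations from group means and 100000 permutations within groups, or exact enumeration in the 24 h table alone, two-sided. The reference sequences are of GRCm38, so no coordinates are given, and no protein sequences were used here. Alternatives were a pseudocount of 0.1, no filter, median-ratio and quantile scaling, averaging before the log, every library as a replicate, leaving out libraries with a median correlation under 0.92, a replicate block and leaving out each animal.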

Additional observations from a re-analysis of the deposited data

Results flagged for a closer look

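Within 42 groups of 4 or 5 animals, 6 values stood apart from their own group by Dixon's test at the 95% level. In independent groups of normally distributed values, chance alone flags about 1 of 20. These groups hold TPM of related genes and their sum in the same animals, so the count is not read against that rate. In PT-S1 at 72 h, sham animal 5 had 31.5 TPM of Cyp4a12a against 6.23 to 9.21 TPM in the other 4 sham animals, and 10.1 TPM of Cyp4a12b against 3.63 to 5.27 TPM. In the same table UNx animal 5 had 0.85 TPM of Cyp4a32 where the other 4 had 0.215 to 0.275 TPM. In CCD at 24 h, sham animal 4 had 6.44 TPM of Cyp4a14 against 0.69 to 1.53 TPM. In CCD at 72 h, sham animal 1 had 9.30 TPM of Cyp4a10 against 0.17 to 1.18 TPM, and 7.18 TPM of Cyp4a31 against 0.46 to 0.49 TPM.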

How the results depend on the processing

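The number of genes passing in limma (adjusted p under 0.05) depended on the setting, and the cause was not tested. In PT-S1 at 24 h it was 0, against 2 with no filter, 1 with median-ratio scaling, 1 with quantile scaling, 1 without the low-correlation libraries, 85 with every library as a replicate and 0 to 8 with an animal left out. In PT-S1 at 72 h it was 0, against 1 without the low-correlation libraries and 18 with every library as a replicate. In CCD at 24 h it was 136, against 1 with no filter, 1027 with every library as a replicate and 7 to 78 with an animal left out. In CCD at 72 h it was 82, against 7 with no filter, 129 without the low-correlation library, 150 with every library as a replicate and 8 to 73 with an animal left out. For the difference between times in PT-S1 it was 0, against 187 without the low-correlation libraries. With a replicate block on the animal number, 81, 0, 0 and 3 genes passed in PT-S1 at 24 h and 72 h and CCD at 24 h and 72 h. The numbers were not taken as pairs, since same-numbered animals correlated between -0.37 and 0.33.

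The log2 change of the summed Cyp4a level kept its sign in PT-S1 under the alternatives run for it (pseudocount, scaling, averaging, low-correlation libraries, replicate block and each animal left out), from 1.86 to 2.50 at 24 h (2.11 as reported, 2.50 with the replicate block) and from 0.55 to 1.21 at 72 h (0.82 as reported). In CCD it was -0.41 at both times, and 0.0713 without UNx animal 1 at 24 h and 0.11 without sham animal 1 at 72 h. No member change that turned sign in CCD was called. At 24 h these were Cyp4a14 at 0.16 with the replicate block and Cyp4a12a at -0.0245 with a pseudocount of 0.1 and at -0.0864 with every library. At 72 h Cyp4a12a was at -0.0148 with median-ratio scaling, -0.0572 with quantile scaling, -0.00876 with averaging before the log, -0.0454 without the low-correlation library and -0.14 with every library. With an animal left out, changes at 24 h ran from -1.09 to 0.0520 for Cyp4a10, -0.43 to 0.24 for Cyp4a14, -0.84 to 0.0290 for Cyp4a31 and -0.18 to 0.19 for Cyp4a12a, and at 72 h from -0.55 (without sham animal 3) to 0.34 for Cyp4a12a. Of 165 alternative values of member changes in PT-S1, 164 were positive. These recompute the same changes in the same animals, and their direction was in view when the members were chosen, so the count is no separate support. Of the 10 correlations between members, 10 passed on r with median-ratio scaling and 8 without the low-correlation libraries.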

Other observations

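The genes that flank the Cyp4a run were measured in the same PT-S1 animals. Pdzk1ip1, the gene of a small membrane protein before the run, was 2904 ± 440 TPM after sham and 3054 ± 350 TPM after UNx surgery at 24 h (SD, n = 3 and 4). At 72 h it was 3280 ± 471 and 3666 ± 767 TPM (n = 5 each). Efcab14, an EF-hand protein gene after the run, was 23.5 ± 5.30 and 18.1 ± 4.29 TPM at 24 h and 19.1 ± 0.696 TPM in sham animals at 72 h. Atpaf1, an assembly factor of the mitochondrial ATP synthase, was 22.1 ± 1.66 and 17.8 ± 4.28 TPM at 24 h. Their changes relative to the median gene at 24 h were 0.33, -0.12 and -0.09, and no flanking gene passed in limma (adjusted p under 0.05). Pdzk1ip1 was also high in CCD, at 4430 ± 683 TPM in sham animals at 24 h and 4520 ± 887 TPM at 72 h (n = 4 each).

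Mogat1, the gene whose animal-to-animal pattern was most like that of Cyp4a14, was 28.8 ± 15.4 TPM after sham and 178 ± 118 TPM after UNx surgery at 24 h (SD, n = 3 and 4; change 2.42, SE 0.734). Napsa was 108 ± 43.7 and 388 ± 318 TPM (change 1.30, SE 0.816). Acadl, the gene most like Cyp4a10, was 204 ± 20.6 and 307 ± 39.0 TPM (change 0.62, SE 0.157). Cyp2j13, the gene most like Cyp4a12a, was 175 ± 66.2 and 196 ± 60.1 TPM (change 0.25, SE 0.311).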
